A study of Drosophila melanogaster with 8 samples.

Results

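The 43 genes described here drive the cell cycle or license and start DNA replication. They were listed by name and matched to rows of the deposited table through their FlyBase identifiers, 41 by current symbol and 2 by a synonym (CDC45L, listed as Cdc45, and Mad2, listed as mad2). All 43 of the 18354 gene rows measured passed the filter on low values, which 9380 gene rows passed. They fall into 9 regulators of the step from G1 into S phase, 17 genes of replication licensing and firing, and 17 genes of entry into and passage through mitosis. The tissue was the wing imaginal disc of Drosophila melanogaster larvae in the third instar, a sheet of dividing epithelium from which the adult wing and thorax form. The 4 control libraries carried the driver nub-Gal4 with UAS-mRFP, a red fluorescent protein, and the 4 libraries labelled ecd-RNAi carried in addition UAS-ecd-RNAi, which targets ecd (ecdysoneless), a gene needed for pre-mRNA splicing. The driver acts in the pouch of the disc, so every library mixes pouch cells with cells outside the driver's domain, and the labels name no RNAi construct in controls. Discs were pooled, 150 to a library, on day 7 after egg laying at 25 °C.

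In the dividing cell, cyclins switch on their kinases in turn. CycD with Cdk4 and CycE with Cdk2 release the transcription factor E2f1 from its inhibitor Rbf and start S phase, while origins loaded with the MCM helicase in G1 fire once. CycA, CycB and CycB3 with Cdk1 then drive mitosis once the phosphatase encoded by stg (the fly Cdc25) has activated Cdk1, and the pseudokinase encoded by trbl (tribbles) holds cells in G2 by promoting the destruction of Stg protein. Many of these proteins are controlled by destruction, which transcript levels do not show.

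The largest change among these genes was in trbl, whose transcript rose 2.70-fold in the libraries labelled ecd-RNAi, while stg, which its product opposes, rose by only 0.14 on the log2 scale. Transcripts for Cdk1, CycB and CycE fell by 0.64, 0.59 and 0.54. Of the 43 genes 25 fell, 6 rose and 12 did not pass (limma on log2(normalized count + 1), Benjamini-Hochberg adjusted over all gene rows tested, threshold 0.05). Over all gene rows tested 62.5% were called, 31.7% lower and 30.8% higher, so the share called among these genes, 72.1%, stood beside that background, with 58.1% lower and 14% higher. The median log2 fold change was -0.15 over the 43 genes and 0.0014 over all gene rows tested. Most differences were small: trbl alone changed more than 2-fold, and Cdk1 and CycB alone were more than 1.5-fold lower in the mean. The groups of 4 libraries did not overlap in 21 of the 43 genes, or 48.8%, against 57.2% of all gene rows tested. After recentring each library on its median, 25 counted as lower and 2 as higher. Over all gene rows the split then went from 2970 lower and 2889 higher to 3691 and 2285. With quantile normalization only 17 of the 43 genes counted as lower and 7 as higher, and 3227 and 2425 of all gene rows. The excess of lower calls among these genes thus depended on the scaling.

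**Figure D1:**
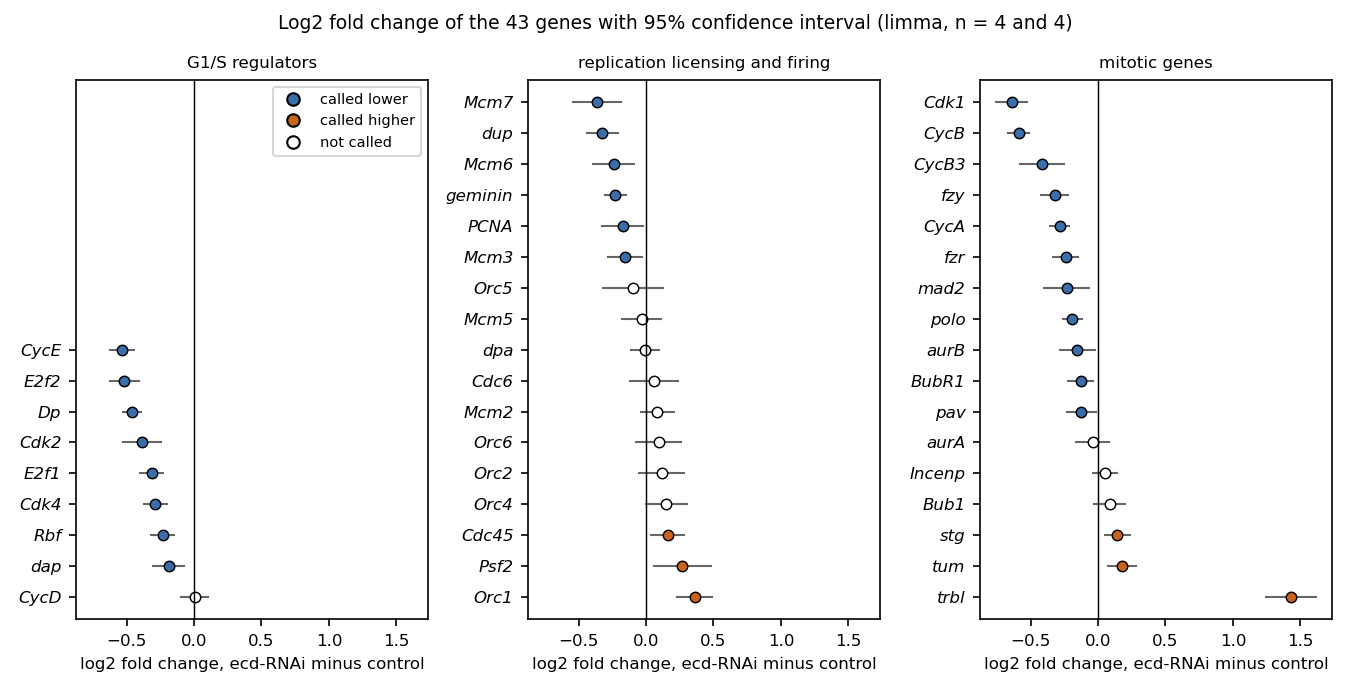
Log2 fold change (libraries labelled ecd-RNAi minus control) of the 43 genes in 3 roles, with 95% confidence intervals from limma, n = 4 libraries per group. Filled points passed the test; 8 of 9 regulators of S phase entry lie below 0, the licensing genes lie on both sides of it, and trbl lies far above all others at 1.43.

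Total RNA was sequenced from libraries whose normalized counts summed to 3.51e+07 to 3.79e+07 in controls and 2.74e+07 to 3.26e+07 in the libraries labelled ecd-RNAi. The ecd transcript, which checks the labels, was higher and not lower in the latter, 1348 ± 114 against 1028 ± 25.9 normalized counts (SD, n = 4), so each direction given is that of the libraries as labelled. Whether RNA from the RNAi construct is counted to ecd was not tested, so the value does not measure the knockdown. All 10 markers of disc epithelium, among them nub and vg, passed the filter on low values (9 fell and 1 rose), and their summed level was 78535 to 81545 in controls and 54605 to 58272 in the libraries labelled ecd-RNAi. The 7 markers of adult muscle precursors (6 fell) summed to 10432 to 10884 in controls and 5489 to 6566 in the other group. The 7 tracheal markers (3 fell, 3 rose) summed to 48434 to 51782 and 53144 to 57564. Summed levels overlapped for the 8 hemocyte markers (1 fell, 2 rose; 2872 to 3403 and 2919 to 5143), the 7 fat body markers (1 fell; 1213 to 8571 and 646 to 5954) and the 6 neuronal markers (3 fell, 1 rose; 732 to 843 and 613 to 757). No marker of any list was at 0. Beside these counts of markers, 31.7% of all gene rows tested fell and 30.8% rose. The part of these marker shifts in the results on cell cycle genes was not tested; in whole discs, fewer cells of a type and less RNA per cell cannot be told apart. Developmental stage was not measured beyond the day of collection.

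Regulators of S phase entry had 8 of 9 members that fell, or 88.9% against 31.7% of all gene rows tested, and none that rose. Their median log2 fold change was -0.31. The G1/S cyclin gene CycE (FBgn0010382, chromosome 2L, 15727581 to 15748150, minus strand) had, in replicate order, 2068, 2200.3, 2218 and 2172 normalized counts in controls and 1548, 1528, 1426 and 1467 in the libraries labelled ecd-RNAi. Every library labelled ecd-RNAi lay below every control, 1.45-fold lower in the mean, and the log2 fold change was -0.54 ± 0.04 (SE, limma adjusted p = 1.28e-06). Its kinase partner Cdk2 went from 982, 979.5, 1032 and 1089 to 768, 712, 778 and 867, again without overlap between the groups (log2 fold change -0.39, adjusted p = 0.000395). Exons of CG17267 on the opposite strand overlap 1010 of the 2299 exonic bases of Cdk2, so its value is uncertain.

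The E2F factors and their partner fell together. E2f2 (FBgn0024371, chromosome 2L, 21154293 to 21156749, minus strand), the repressor of the family, was at 1043, 997, 983 and 1015 in controls and 703, 720.2, 745 and 657 in the libraries labelled ecd-RNAi, a log2 fold change of -0.52 ± 0.05 (SE, adjusted p = 6.64e-06). Dp (FBgn0011763, chromosome 2R, 13222433 to 13228202, plus strand), the subunit that both E2F proteins need to bind DNA, was at 3684, 3844, 3717 and 3753 and 2697, 2757, 2778 and 2676 (-0.46 ± 0.03, adjusted p = 5.24e-07). In both genes the groups stood apart by more than the spread within either. The activator E2f1 had 5406, 5201, 5733 and 5355 in controls against 4495, 4387, 4326 and 4234, a log2 fold change of -0.31 (adjusted p = 3.98e-05). Rbf, the fly retinoblastoma protein that restrains E2f1, had 1966, 1843, 1873 and 1907 against 1663, 1664, 1564 and 1569 (-0.23, adjusted p = 0.000393).

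The CycD module split. Cdk4 fell from 1844 ± 54 to 1509.7 ± 49.6 normalized counts (SD, n = 4; adjusted p = 8.51e-05), without overlap. Its cyclin, CycD, was at 1324 ± 57.9 and 1328 ± 54.9; the 95% interval of its log2 fold change, -0.10 to 0.11, does not reach the -0.54 of CycE. The direction of CycD turned with the scaling, to -0.09 after recentring. For dap, the fly p21 and p27 relative that blocks CycE with Cdk2, the controls had 2032, 2277, 2180.2 and 2288 and the libraries labelled ecd-RNAi 1949.8, 1796, 2062 and 1894. These groups overlapped, since the highest library labelled ecd-RNAi exceeded the lowest control, although the gene passed (-0.19, adjusted p = 0.0102; 0.239 with quantile normalization, where the call was lost).

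**Figure D2:**
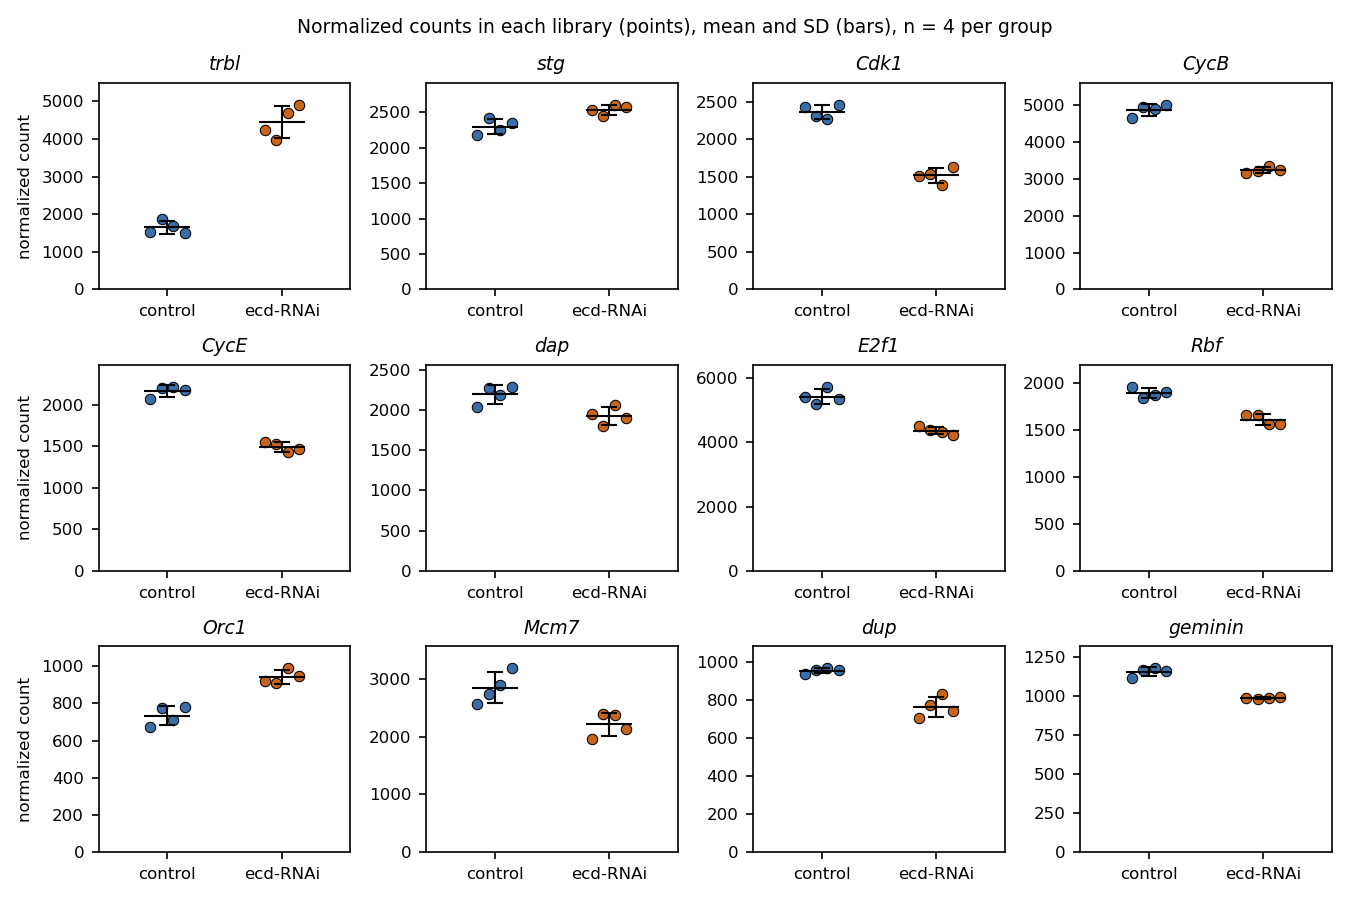
Normalized counts of 12 genes in each library; points are libraries, horizontal bars and whiskers the mean and SD, n = 4 per group, and each vertical axis starts at 0. The groups do not overlap in any gene shown but dap, and trbl sits at 1507 to 1876 in controls and 3975 to 4904 in the libraries labelled ecd-RNAi.

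Of the 17 licensing genes, 6 fell, 3 rose and 8 did not pass, with a median log2 fold change of -0.0070. The share that fell, 35.3%, was near the 31.7% of all gene rows tested, and the share called in either direction, 52.9%, was below the 62.5% of all gene rows. The 6 subunits of the MCM ring, which unwinds DNA at the fork, differed in call: 3 passed, all lower, and 3 did not. Mcm7 (FBgn0020633, chromosome 3L, 8891596 to 8894310, plus strand) had 2554, 2729.6, 2893 and 3181 normalized counts in controls and 1962, 2381, 2373 and 2123 in the libraries labelled ecd-RNAi, 1.29-fold lower without overlap (-0.36 ± 0.08, adjusted p = 0.0025). Exons of asRNA:CR45871 on the opposite strand overlap 2003 of the 2451 exonic bases of Mcm7, so its value is uncertain. Mcm6 fell by 0.24 (adjusted p = 0.011; 0.194 with quantile normalization) and Mcm3 by 0.15 (adjusted p = 0.0369). Of Mcm2, dpa (the fly MCM4) and Mcm5 none passed: their log2 fold changes were 0.08, -0.0070 and -0.03. The sign of all 3 turned under one scaling or the other, and Mcm2 and dpa were called higher with quantile normalization (adjusted p = 0.00573 and 0.0282). Mcm2 was also called higher without control replicate 4 (adjusted p = 0.0382). The call of Mcm3 was lost in 5 of the 8 fits that left out 1 library, these being replicates 3 and 4 of the control and 1, 3 and 4 of ecd-RNAi (adjusted p 0.0647 to 0.102). It was also lost with quantile normalization, with no mean trend and with the replicate block (adjusted p = 0.599, 0.0701 and 0.0637).

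The MCM genes and PCNA, the sliding clamp of the polymerases, were highest in the same libraries. Control replicate 4 held the highest control value of all 7, and ecd-RNAi replicate 2 the highest value of all 7 in its group. Over all 43 genes, too, the median log2 difference from the control mean was highest among controls in replicate 4, at 0.06. Among the libraries labelled ecd-RNAi that median was highest in replicate 3, at -0.12. PCNA itself went from 2491 ± 232 to 2208 ± 144 (SD, n = 4; -0.17, adjusted p = 0.0481). The groups overlapped, and the call was lost when any of replicates 1, 3 and 4 of either group was left out (adjusted p 0.0527 to 0.122). It was also lost with no filter on low values, quantile normalization, no mean trend and the replicate block (adjusted p = 0.0581, 0.551, 0.0881 and 0.0957). The median coefficient of variation among control libraries was 7.97% over the licensing genes, 3.10% over the regulators of S phase entry and 4.49% over the mitotic genes.

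Of the origin recognition complex, which marks where MCM rings load, Orc1 was the 1 of the 5 subunits in this role that passed. Over all gene rows tested 62.5% passed. The subunit gene Orc3 was tested with the replication fork genes and did not pass (0.01, limma adjusted p = 0.898). Exons of Orc3 overlap those of CG34315 on the same strand, so its value is uncertain. Orc1 (FBgn0286788, chromosome 2R, 7522437 to 7525716, minus strand) was at 672, 775, 710.0 and 778 in controls and 921, 908, 989 and 945 in the libraries labelled ecd-RNAi. Every one of the latter exceeded every control, a 1.28-fold rise (0.36 ± 0.06, adjusted p = 0.000319), and it was called in all 16 alternative settings. Orc2, Orc4, Orc5 and Orc6 had log2 fold changes of 0.12, 0.15, -0.09 and 0.09 and did not pass, and those of Orc2 and Orc6 turned below 0 with quantile normalization. Cdc6, the loader that acts with the complex, had 0.06 (95% interval -0.12 to 0.24), which turned below 0 under both scalings.

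The loader dup and its inhibitor geminin both fell. The gene dup (double parked, the fly Cdt1; FBgn0000996, chromosome 2R, 15376619 to 15380988, minus strand) had 937, 956, 968 and 957 in controls and 706, 774, 833 and 743 in the libraries labelled ecd-RNAi (-0.32 ± 0.05, adjusted p = 0.000396). For geminin, whose protein holds Cdt1 inactive after S phase has begun, the values were 1115, 1170.1, 1180.2 and 1162 and 986, 982, 986 and 998 (-0.23 ± 0.04, adjusted p = 0.000288). Neither pair of groups overlapped. Cdc45 and the GINS complex turn the MCM ring into an active helicase. Cdc45 was at 674 ± 37.5 and 753 ± 35.9 and the GINS subunit Psf2 at 196 ± 25.2 and 234 ± 5.68 (SD, n = 4; adjusted p = 0.0267 and 0.0295). The other GINS subunits, Sld5, Psf1 and Psf3, had log2 fold changes of -0.13, -0.10 and 0.09 and did not pass. The calls of Cdc45 and Psf2 were weak. Both were lost under either scaling (adjusted p 0.113 to 0.448) and in the authors' deposited table (adjusted p = 0.0527 and 0.0675). Without 1 library, Cdc45 lost its call in 5 of 8 fits (replicates 2 and 3 of the control, and 2, 3 and 4 of ecd-RNAi; adjusted p 0.0512 to 0.0725) and Psf2 in 5 (replicates 2 and 3 of the control, and 1, 2 and 3 of ecd-RNAi; 0.0562 to 0.0797). Leaving out replicate 2 or replicate 3 of either group left 1 licensing gene that rose. Leaving out ecd-RNAi replicate 1 or 4 counted 2 such genes, and of the 6 that fell only 4 were counted without replicate 3 or 4 of either group or without ecd-RNAi replicate 1.

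Per kilobase of exonic length, control levels of the MCM genes lay between 774 (Mcm5) and 1159 (Mcm7) normalized counts. Those of the 5 origin recognition genes in this role lay between 182 (Orc6) and 257 (Orc4). In the libraries labelled ecd-RNAi the MCM range was narrower, 756 (Mcm5) to 937 (Mcm2). Mcm7 and Mcm6 stood highest in controls, at 1159 ± 109 and 1084 ± 107 (SD, n = 4), and overlapped within their SD. Geminin was at 1090.3 ± 27.2 and dup at 304 ± 4.08 per kilobase in controls (SD, n = 4). The lengths are those of all annotated exons joined, which can exceed the transcript that the disc makes.

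**Figure D3:**
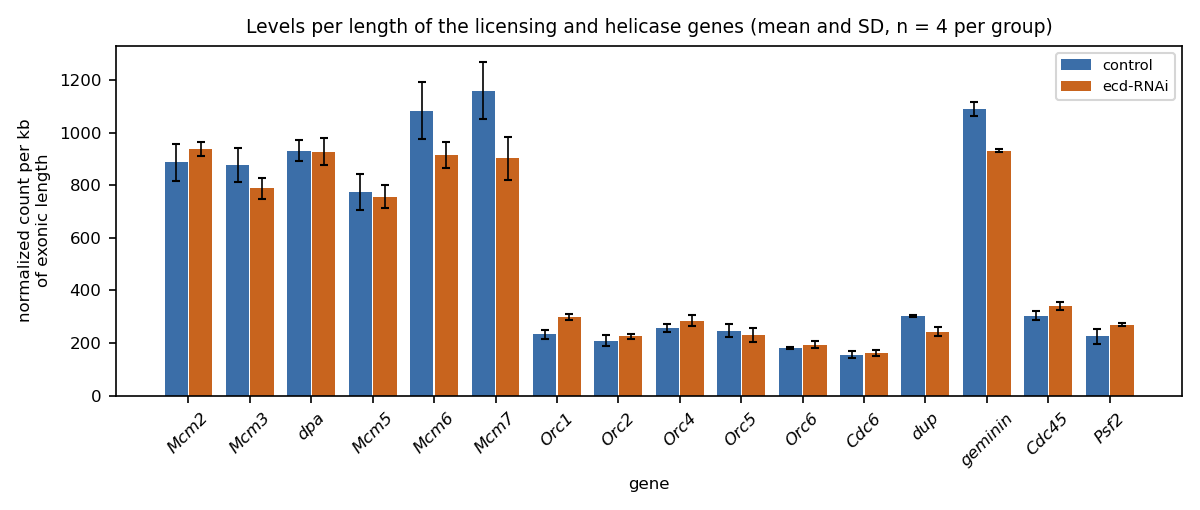
Normalized counts per kilobase of exonic length of 16 licensing and helicase genes, bars as the mean and whiskers as the SD, n = 4 libraries per group. The MCM genes and geminin stand between 756 and 1159, and the other genes between 157 and 340.

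Among mitotic genes the cyclins and Cdk1 fell and trbl rose; 11 of 17 fell, 3 rose and 3 did not pass, with a median log2 fold change of -0.15. The shares were 64.7% lower and 17.6% higher, against 31.7% and 30.8% of all gene rows tested. Cdk1 (FBgn0004106, chromosome 2L, 10384739 to 10386262, minus strand), the kinase that triggers mitosis, had 2428, 2302, 2266 and 2452 normalized counts in controls and 1509, 1533, 1390.1 and 1635 in the libraries labelled ecd-RNAi, 1.56-fold lower (-0.64 ± 0.05, adjusted p = 2.42e-06). CycB (FBgn0000405, chromosome 2R, 22803521 to 22806948, minus strand) had 4640.5, 4935, 4891 and 4994 and 3159, 3218, 3334 and 3225 (-0.59 ± 0.03, adjusted p = 2.36e-07). For both genes the gap between the groups exceeded the range within either. CycB3 and CycA, the other mitotic cyclins, fell by 0.42 and 0.28 (adjusted p = 0.000668 and 2.82e-05), also without overlap.

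The inhibitor trbl (FBgn0028978, chromosome 3L, 20396288 to 20401609, minus strand) had 1531, 1876, 1692 and 1507 normalized counts in controls and 4231, 3975, 4698 and 4904 in the libraries labelled ecd-RNAi. All 4 of the latter lay far above the highest control, and the log2 fold change was 1.43 ± 0.08 (SE, limma adjusted p = 2.34e-07). It was called in all 16 alternative settings. The phosphatase gene stg (string; FBgn0003525, chromosome 3R, 29251826 to 29255800, minus strand) was at 2183, 2416, 2250.1 and 2349.9 and 2534, 2444, 2603 and 2581. Those groups lay close together but did not overlap (0.14 ± 0.04, adjusted p = 0.0102), and the call was lost after recentring (0.05 on the log2 scale, adjusted p = 0.311).

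Mitotic kinases fell slightly or did not pass, and the exit factors fzy and fzr fell without overlap. The kinase gene polo fell by 0.19 (adjusted p = 0.000399; 0.089 with quantile normalization). The gene aurB, the kinase of the chromosomal passenger complex, had -0.15 (adjusted p = 0.0428), while aurA, a spindle pole kinase, and Incenp, the scaffold of the passenger complex, had -0.04 and 0.05 and did not pass. Incenp turned to -0.04 after recentring and was called higher with quantile normalization (adjusted p = 0.00567). The call of aurB was lost when replicate 1, 3 or 4 of the control or 1, 2 or 4 of ecd-RNAi was left out (adjusted p 0.0556 to 0.113). It was also lost with no filter on low values, quantile normalization and no mean trend (adjusted p = 0.0546, 0.0704 and 0.0709), and in the authors' deposited table (adjusted p = 0.0567). The activators of the anaphase-promoting complex both fell. The gene fzy (the fly Cdc20) had 1921, 1843, 2042 and 2113 in controls and 1552, 1622, 1567 and 1588 in the libraries labelled ecd-RNAi (adjusted p = 0.000155). The gene fzr (the fly Cdh1), which keeps mitotic cyclins low in G1, had 811, 819, 798 and 808 and 695, 677, 713 and 656 (adjusted p = 0.000608). Neither pair overlapped, and the log2 fold changes were -0.32 and -0.24.

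The 5 spindle checkpoint and cytokinesis genes placed among the mitotic genes shifted little, and the groups overlapped in all 5. Over all gene rows tested the groups did not overlap in 57.2%, and 31.7% were called lower and 30.8% higher. Some genes of the kinetochore and spindle list described below shifted more, in both directions, among them Mad1 (-0.87) and feo (0.54). Of the checkpoint genes among the 5, mad2 had -0.23 (adjusted p = 0.0197) and BubR1 -0.13 (adjusted p = 0.0228). Bub1 had 0.09, did not pass, and turned below 0 after recentring. The centralspindlin subunits, which build the cleavage site, went opposite ways: the kinesin gene pav had -0.13 (adjusted p = 0.043) and tum, its GTPase-activating partner, 0.18 (adjusted p = 0.00831; 0.136 after recentring). BubR1 and pav were above 0 with quantile normalization, at 0.0077 and 0.014 and no longer called, and pav also lost its call with no filter and with no mean trend (adjusted p = 0.0574 and 0.0796). Left-out libraries ended the calls of mad2 in 3 fits (replicates 3 and 4 of the control and 3 of ecd-RNAi; adjusted p 0.0540 to 0.0573). They ended those of BubR1 in 5 (replicates 2, 3 and 4 of the control, 1 and 4 of ecd-RNAi; 0.0533 to 0.0629) and of pav in 5 (replicates 3 and 4 of the control, 1, 2 and 4 of ecd-RNAi; 0.0588 to 0.118). Without control replicate 3 or without control replicate 4, 7 mitotic genes fell instead of 11.

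**Figure D4:**
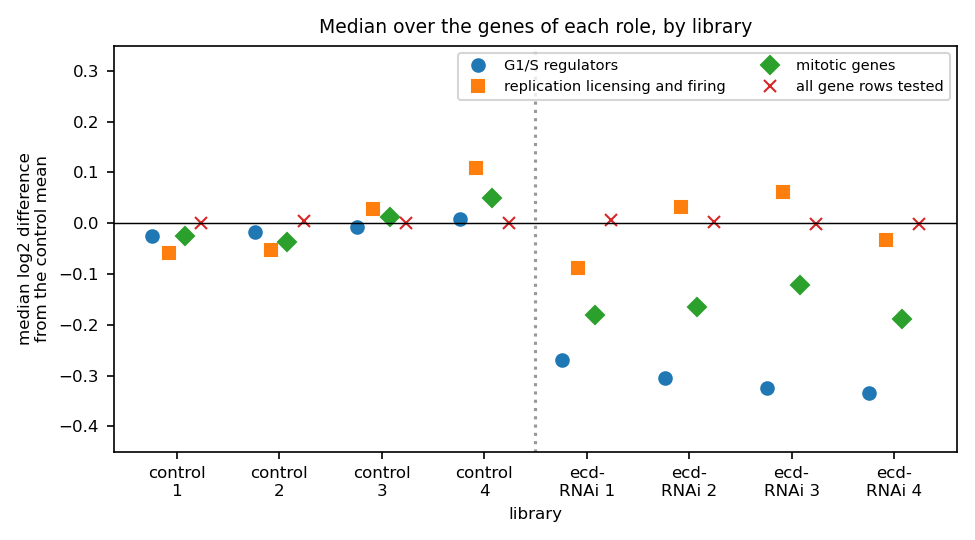
Median, over the genes of each role, of the log2 difference between a library and the control mean, for the 8 libraries and for all gene rows tested, on the deposited scaling alone. Regulators of S phase entry lie between -0.33 and -0.27 in the libraries labelled ecd-RNAi, mitotic genes between -0.19 and -0.12, and licensing genes between -0.09 and 0.06, overlapping the control range of -0.06 to 0.11.

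Regulators of S phase entry and mitotic genes were shifted in each library labelled ecd-RNAi. The median difference from the control mean was -0.27, -0.31, -0.33 and -0.33 for regulators of S phase entry in ecd-RNAi replicates 1 to 4, and -0.18, -0.16, -0.12 and -0.19 for mitotic genes. Licensing genes had -0.09, 0.03, 0.06 and -0.03 in the same libraries, against -0.06, -0.05, 0.03 and 0.11 in control replicates 1 to 4. The medians of licensing genes thus overlapped between groups, and those of the other 2 roles did not. All these medians were taken on the deposited scaling alone. Recentring lowered log2 fold changes by a median of 0.09 over all gene rows tested. Whether the medians by library separate in the same way under the other scalings was not tested. Whether the roles differ from each other was not tested.

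Ratios between partners with opposed or alternative functions were compared within each library, where gene length cancels between groups. The log2 ratio of stg to trbl was 0.51, 0.36, 0.41 and 0.64 in controls and -0.74, -0.70, -0.85 and -0.93 in the libraries labelled ecd-RNAi, a 2.44-fold drop. That of CycE to dap, an activator and its inhibitor, was 0.03, -0.05, 0.02 and -0.08 against -0.33, -0.23, -0.53 and -0.37, a 1.27-fold drop. That of Cdk1 to Cdk2, whose own value is uncertain as given above, was 1.31, 1.23, 1.13 and 1.17 against 0.97, 1.10, 0.84 and 0.91, a 1.19-fold drop. In these 3 ratios the groups did not overlap, and each had an exact permutation p of 0.0286 (two-sided), the smallest that 4 against 4 libraries allow. Adjusted over the 7 ratios compared, it became 0.0667 and none passed. With only 3 ratios at that smallest p, none could pass after adjustment, whatever the size of its drop. The ratios of E2f1 to Rbf, E2f1 to E2f2, dup to geminin and fzy to fzr overlapped between groups. They differed by -0.08, 0.20, -0.10 and -0.08 on the log2 scale (exact permutation, adjusted p = 0.08, 0.08, 0.167 and 0.257).

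**Figure D5:**
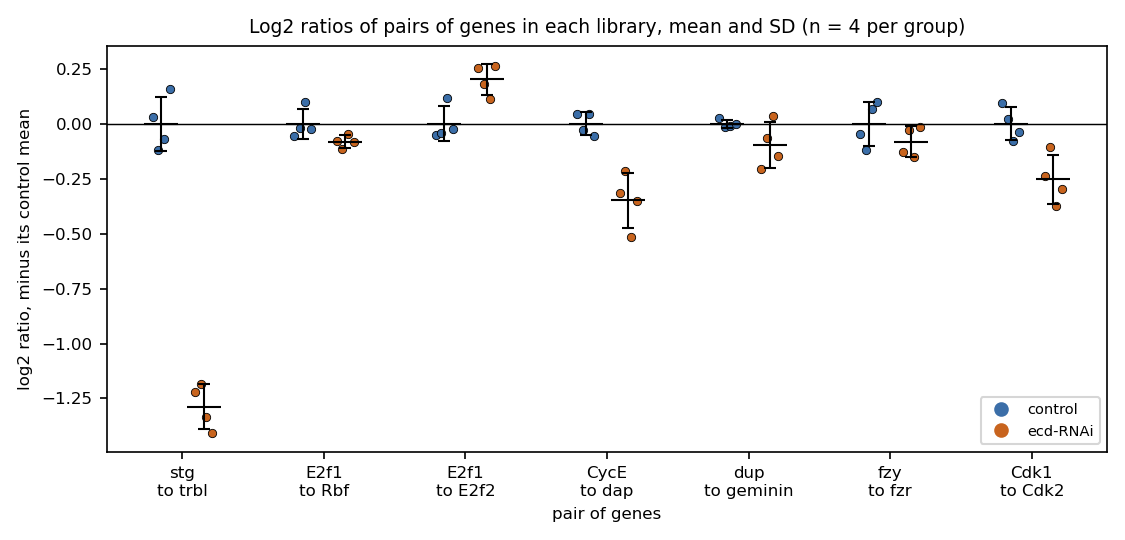
Log2 ratio of 7 pairs of genes in each library, less its control mean; points are libraries, bars and whiskers the mean and SD, n = 4 per group. The ratio of stg to trbl lies 1.29 below the control mean in the libraries labelled ecd-RNAi, far below the other ratios, of which CycE to dap and Cdk1 to Cdk2 also do not overlap.

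Other genes of the cell cycle, 120 tested of 124 listed, counted 51 that fell, 22 that rose and 47 that did not pass, or 42.5% lower and 18.3% higher against 31.7% and 30.8% of all gene rows. Of 31 genes of the replication fork and nucleotide supply, 13 fell and 4 rose. RPA1, the large subunit of the protein that coats single-stranded DNA, went from 2932 ± 125 normalized counts to 7108 ± 238 (SD, n = 4), a rise of 2.42-fold (adjusted p = 6.49e-09). RfC4, a subunit of the clamp loader, rose by 0.68 on the log2 scale, while Prim1 (primase) and chif (the fly Dbf4) were 1.61-fold and 1.53-fold lower. The locus of chif shares exons with Hyls1 on the same strand, so its value is uncertain.

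Of 14 genes of the G2/M checkpoint and its kinases, 6 fell and 4 rose, where 31.7% and 30.8% of all gene rows tested did so. The checkpoint kinase gene grp (the fly Chk1) went from 9592 ± 439 to 6260.3 ± 592 and tws, a regulatory subunit of protein phosphatase 2A, from 3974 ± 133 to 2436 ± 91 (adjusted p = 1.42e-05 and 1.58e-07); exons of grp overlap those of squ on the same strand, so its value is uncertain. CycG and mei-41 (the fly ATR) rose 1.39-fold and 1.21-fold. The inhibitory kinase genes of Cdk1, Wee1 and Myt1, had log2 fold changes of -0.06 and 0.01 and did not pass.

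Of 43 genes of the kinetochore, spindle and chromosome condensation, 16 fell and 7 rose, where 31.7% and 30.8% of all gene rows tested did so. The number that rose was 4 after recentring and 11 with quantile normalization. Mad1, the checkpoint partner of mad2, fell most, from 1074 ± 35 to 588 ± 25.9 (1.83-fold lower, adjusted p = 1.49e-07), followed by borr, a passenger complex subunit, at 1.47-fold lower. The centrosome gene cnn and the midzone gene feo rose 1.56-fold and 1.45-fold. Exons of Mad1 overlap those of Cog6 on the opposite strand.

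Of 19 genes of the anaphase-promoting complex and SCF ligases, 9 fell and 4 rose, where 31.7% and 30.8% of all gene rows tested did so. The number that rose was 1 after recentring. The F-box gene ago, whose product marks CycE for destruction, was 1.52-fold lower at 3529 ± 221, and APC7 rose from 25.7 ± 2.98 to 84.5 ± 17.3 at a low level. Of other subunits of the complex, lmgA fell by 0.29 and APC4 rose by 0.18 on the log2 scale; lmgA shares exons with lmgB on the same strand. The call of lmgA was lost in 4 of the 16 alternative settings and that of APC4 in 2.

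In the dREAM and Myb complex, which with E2f2 and Rbf represses genes in proliferating tissue, 5 of 6 tested genes fell and 0 rose. They were led by mip120 at 1.45-fold lower and Caf1-55 at 1.28-fold lower (limma adjusted p = 1.96e-06 and 4.9e-05). Over all gene rows tested 31.7% fell and 30.8% rose, the background also for the next list. Of 7 genes listed with activation of the kinases, 2 fell and 3 rose: the Cdk-binding genes Cks30A and Cks85A rose 1.39-fold and 1.37-fold, and Pp2A-29B and Cdc37 fell by 0.24 and 0.17 on the log2 scale. Exons of Cks85A overlap those of TMEM216 and CG8112 on the opposite strand over 2264 of its 3024 exonic bases, and exons of Cdc37 overlap those of CG12020 on the same strand, so both values are uncertain.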

How the data were processed

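RNA was measured in wing discs, 4 control libraries and 4 labelled ecd-RNAi, each from 2 µg of total RNA with a stranded kit and rRNA removal, per the labels. The labels disagree on single-end or paired-end reads and on the sequencer. The authors deposited normalized counts, a signal that is never negative and not whole, per the file headers; the submitters' processing notes name FastQC, DESeq2 1.34.0, kallisto 0.46.1, cutadapt 3.5 and the build BDGP6. How strand was used, and other settings, were not given in the sources used here. Exons of 17 of the 43 genes overlap those of a gene on the opposite strand (CycE, Cdk2, Cdk4, E2f1, E2f2, Dp, Mcm3, Mcm7, Orc1, Orc2, Orc4, Orc5, Orc6, dup, aurA, fzy and mad2), so their values are uncertain. The authors' deposited table gives mean signal, log2 fold changes, a Wald score, p-values and adjusted p-values; of the 43 genes it called 24 lower and 4 higher, with the call made here in 40.

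Recovery of whole reads was tried from the low values, but only 71.7% to 84.8% of values up to 20 steps came within 0.1 of a whole number, and the count test was therefore left out. From the step between low values, depth was roughly 2.95e+07 to 3.65e+07 reads in controls and 3.11e+07 to 3.75e+07 in the other group.

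The test was limma 3.58.1 in R 4.3.3 with a mean trend (lmFit, eBayes, two-sided) on log2(normalized count + 1), with no covariate. It was fitted on the 9380 gene rows whose mean over the 8 libraries reached 10, and a gene was called where p, adjusted by Benjamini-Hochberg over those rows, was below 0.05. Log2 fold changes are on this scale and understate low genes; N-fold values are ratios of group means. The fit was tested before use on simulated data with known changes in 200 genes, where in the real data 62.5% of gene rows were called. The simulation held no difference in scaling between libraries, so it does not test how calls depend on scaling. Ratios were compared by an exact permutation test over the 8 libraries, adjusted over the 7 ratios. The labels call the libraries biological replicates, whose spread the p-values measure. The members and lists were chosen with earlier results of these data known. All members are named; each role's 3 largest called changes and the genes of the ratios get every library's value, and other lists the 2 largest called changes in each direction. Entries RPA2, RPA3 and CG11188 of the lists were not matched, the last being an error, and tomb fell below the filter. Coordinates are 1-based, from the Ensembl annotation of BDGP6. The alternatives tried were other pseudocounts and filters, quantile normalization, recentring on the median, no trend, the replicate number as a block and leaving out each library.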

Additional observations from a re-analysis of the deposited data

Results flagged for a closer look

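In the libraries labelled ecd-RNAi, aurA was at 507.1 normalized counts in replicate 3, below the 545.8 to 549.7 of the other replicates, a gap of 0.908 of the group's whole range. It was the 1 group flagged of the 86 examined (43 genes in 2 groups of 4 libraries), and chance flags about 1 in 20.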

How the results depend on the processing

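Of the 31 genes called, 18 kept their call in all 16 alternative settings, namely trbl, Cdk1, CycB, CycA, CycB3, CycE, E2f1, E2f2, Dp, Rbf, Cdk2, Cdk4, Orc1, Mcm7, dup, geminin, fzy and fzr. The same share over all called gene rows is not given here, so these genes cannot be ranked against others. Of the 12 genes not called, 9 were called in no setting. Over the 688 values of the 43 genes in these settings, 63 lost a call, 4 gained one and 19 had the opposite sign; the cause was not tested. After recentring on the median, 2 genes rose instead of 6, with 1 licensing gene, 1 mitotic gene, 4 kinetochore and spindle genes and 1 gene of the ligases. With quantile normalization 3 licensing and 7 mitotic genes fell, 11 kinetochore and spindle genes rose, and the difference in the ratio of fzy to fzr reversed to 0.048 on the log2 scale. Without 1 library, the licensing genes that rose numbered 1 to 4 and the mitotic genes that fell 7 to 10. Signs turned with quantile normalization for dpa (0.13), Mcm5 (0.059), Orc2 (-0.0024), Orc6 (-0.14), Cdc6 (-0.079), BubR1 (0.0077) and pav (0.014). They turned after recentring for CycD (-0.086), Mcm2 (-0.0085), Cdc6 (-0.032), Bub1 (-0.0058) and Incenp (-0.038). Without 1 library the log2 fold change of CycD ranged from -0.023 to 0.033, dpa from -0.035 to 0.020 and Mcm5 from -0.068 to 0.026. Shared replicate numbers did not pair the libraries (correlation of deviations across genes -0.05 to 0.05 in the 4 same-numbered pairs, with 2 of 8 libraries correlating best with their own number). With the replicate number as a block 23 genes fell and 6 rose, and Mcm3 and PCNA lost their call. The filters, the trend, recentring and the block were not run for the ratios. The planned description of promoter motifs was not run. Recovery of whole reads failed, so counting error behind each value is not given; the smallest control mean among the 43 genes was 177 normalized counts.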
